A study of Mus musculus with 11 samples.

Results

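The regions described here are 1407 of the 29937 HA peaks of mouse tumour line M00002 on chromosomes 1 to 19 and X. They were chosen by their overlaps with other peak lists. Each overlaps a peak of both H3K27ac antibodies of M00002 and no p65 peak of M00002, no HA peak of the second line, M00001, and no IgG peak of either line. These 1407 peaks are called members below, and the presence of H3K27ac and the absence of p65 and of HA in M00001 are therefore no findings. The assay was CUT&RUN, in which an antibody tethers a nuclease that cuts free the DNA around its target. Both lines come from tumours of mice, are untreated, and are described by the submitters as carrying a fusion with an HA tag, here read as ZFTA-RELA from the series title. M00002 gave libraries of HA, IgG, p65 and H3K27ac with antibodies ac4729 and ac647. M00001 gave libraries of HA, IgG, Cbp, p300 and Rpb1 with antibodies written S2 and S5. The titles of its Cbp, p300, S2 and S5 libraries carry an extra label, not explained, that those of HA and IgG lack. No IgG library carries that label. Each line came from 1 mouse and each target had 1 library per line, so there is no replicate and no test between conditions. The sources used here do not give the mouse strain, the age or the promoter that drives the fusion.

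ZFTA-RELA is the oncogenic fusion typical of supratentorial ependymoma. It joins zinc fingers of ZFTA to most of RELA, also called p65, a transcription factor of the NF-kappaB family with a strong activation domain. H3K27ac is an acetylated histone tail found at active promoters and enhancers, and it is written by the related acetyltransferases Cbp and p300. Rpb1 is the largest subunit of RNA polymerase II, and phosphorylation of its tail at serine 5 and serine 2 is known from initiating and elongating polymerase. A p65 antibody can see Rela protein and, depending on its epitope, the fusion itself. Its epitope is not stated in the sources at hand.

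Sequences are shown for members that lie whole within the 250 bases before an annotated start site, the stretch for which RefSeq sequence of GRCm38.p6 was at hand. There were 38 such members. Of these, 5 are printed, picked after their values were seen, to let the eye compare sites that carry the core letters of PLAG family zinc finger proteins, a kappaB site of NF-kappaB, both or neither, followed by 2 M00002-only HA peaks that do overlap p65. Capitals mark the PLAG core GGGGCC, its reverse complement, or a kappaB match. Each sequence is 5′ to 3′ on the strand of the gene whose start site it precedes and covers the whole HA peak. For the site beside Rapgef2 that gene is 6430573P05Rik, and the nearest end of Rapgef2 itself lies 653 bp away.
Member beside Rapgef2, chr3:79287198-79287410, + strand: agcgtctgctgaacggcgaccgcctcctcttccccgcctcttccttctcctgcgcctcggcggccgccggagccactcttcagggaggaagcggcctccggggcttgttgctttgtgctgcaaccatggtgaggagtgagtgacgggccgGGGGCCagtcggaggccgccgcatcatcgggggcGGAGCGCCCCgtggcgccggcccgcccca
Member at Ube2r2, chr4:41135772-41135894, + strand: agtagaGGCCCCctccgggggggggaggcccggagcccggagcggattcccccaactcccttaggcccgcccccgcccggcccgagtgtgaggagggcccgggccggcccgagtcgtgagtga
Member at Atat1, chr17:35910085-35910263, - strand: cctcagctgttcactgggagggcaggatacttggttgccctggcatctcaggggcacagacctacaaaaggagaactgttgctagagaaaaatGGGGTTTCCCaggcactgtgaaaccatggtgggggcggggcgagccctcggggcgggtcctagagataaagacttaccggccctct
Member at Gabpa, chr16:84834910-84835097, + strand: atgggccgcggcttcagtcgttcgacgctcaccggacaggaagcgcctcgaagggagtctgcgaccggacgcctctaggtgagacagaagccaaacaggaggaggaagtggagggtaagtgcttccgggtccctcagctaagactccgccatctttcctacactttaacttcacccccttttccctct
Member at Higd1a, chr9:121857872-121858016, - strand: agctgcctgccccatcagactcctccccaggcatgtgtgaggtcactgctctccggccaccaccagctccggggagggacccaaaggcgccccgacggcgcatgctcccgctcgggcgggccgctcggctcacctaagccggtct
HA peak with p65 at Pdpn, chr4:143299570-143299712, - strand: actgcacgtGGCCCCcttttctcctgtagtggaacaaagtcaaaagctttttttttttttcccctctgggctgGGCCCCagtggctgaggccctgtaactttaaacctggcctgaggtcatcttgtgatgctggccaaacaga
HA peak with p65 at Ergic1, chr17:26561294-26561450, + strand: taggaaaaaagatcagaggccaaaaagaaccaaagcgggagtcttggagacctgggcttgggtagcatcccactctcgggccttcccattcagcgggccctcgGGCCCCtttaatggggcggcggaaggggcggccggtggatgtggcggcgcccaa

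The site beside Rapgef2, which encodes an exchange factor of Rap GTPases, holds 1 PLAG core and 1 kappaB match. The Ube2r2 site holds 1 PLAG core, the Atat1 site 1 kappaB match, and the Gabpa and Higd1a sites neither. The Pdpn site holds 2 PLAG cores and the Ergic1 site 1. Over the 38 members of this kind, 11 held the PLAG core (28.9%, exact Clopper-Pearson 95% interval 15.4 to 45.9) and 6 a kappaB match (15.8%, 6.02 to 31.3). Of the 22 M00002-only peaks with H3K27ac and p65 in the same position, 9 held the PLAG core and 0 a kappaB match (upper limit 15.4%). Of all 968 HA peaks in that position, 38.6% held the PLAG core and 9.61% a kappaB match, both inside the intervals of members. The intervals of these small sets overlap, so neither difference was clear of counting error. A match describes letters only.

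The choice of members went as follows. Of the 29937 HA peaks, 29147 were free of IgG, 5519 of these overlapped both H3K27ac antibodies, 1665 of these had no p65, and 1407 of these had no HA peak of M00001. Outside the rule lie 2343 peaks that overlap ac4729 only, 304 that overlap ac647 only, and 14 that meet every other condition but overlap IgG. The HA list of M00001 is shorter, with 8504 peaks on the same chromosomes, so absence from it depends on the length of that list. Read depth is unknown. A label of 120 bp stands in the names of 2 lists, HA and p65 of M00002, without an explanation, and for HA it cannot be told apart from line. Members are compared with 3 other classes of HA peaks of M00002, namely 1778 M00002-only peaks with H3K27ac and p65, 14666 M00002-only peaks with neither, and 258 peaks shared with M00001 that have H3K27ac and no p65.

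Members were HA peaks of about the usual strength for this list and weaker than those with p65. Their fold enrichment at the summit, the authors' ratio over background, had a median of 4.80, against 4.49 for all HA peaks free of IgG, and ran from 2.78 to 15.6, with quartiles of 3.74 and 6.11. The median was 8.62 in the M00002-only class with p65, 3.74 in the class with neither mark, and 5.36 in the shared class. The median member was 128 bp wide, the median peak with p65 200 bp and the median peak with neither mark 96 bp. Of the 1407 members, 412 had a −log10 q of at least 5 (29.3%, against 34.8% of all HA peaks). A q under 0.01 was reached by 958 (68.1%, against 57.8%), and the lower quartile of −log10 q was 1.46. Many members are thus weak calls. Members named below that miss the limit of 0.01 include those at Boc (−log10 q 1.26), Gas1 (1.76), Bcl2l1 (1.53), Tgfb3 (1.19 and 1.14) and 0610009B22Rik (0.855). H3K27ac folds were close between classes. The median fold of the overlapping ac4729 peak was 4.52 at members and 4.55 at peaks with p65, and that of ac647 was 4.75 and 4.90. These values belong to the overlaps that chose the members and are given as a description.

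**Figure D1:**
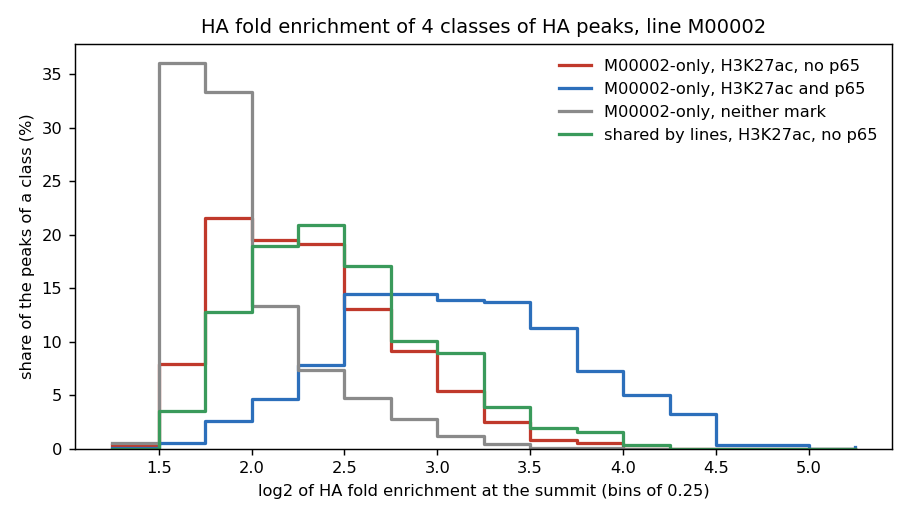
HA fold enrichment at the summit (log2, x axis) against the share of peaks in each class (y axis, percent) for 4 classes of HA peaks of M00002. Members, with a median fold of 4.80, lie between the peaks with neither mark (3.74) and those with H3K27ac and p65 (8.62).

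A p65 peak lay within 1 kb of 359 members (25.5%) and an HA peak of M00001 within 1 kb of 180 (12.8%). For M00002-only peaks with neither mark these shares were 2.92% and 1.48%, and for all HA peaks, which include overlapping ones, 37.3% and 18.6%. Of the shared peaks, which also have H3K27ac and no p65 overlap, 130 of 258 (50.4%) had a p65 peak within 1 kb, more than members. The median gap to the nearest p65 peak was 13961 bp and to the nearest HA peak of M00001 42545 bp. Just inside the rule, 23 members had a p65 peak within 50 bp and 20 an HA peak of M00001 within 50 bp. Just outside it, p65 overlaps of at most 50 bp excluded 36 peaks, and such overlaps with HA of M00001 excluded 49. Overlaps of at most 10 bp excluded 5 and 8. The share of members with a p65 peak nearby went from 2.91% within 100 bp to 25.5% within 1000 bp and 30.6% within 3000 bp, and for HA of M00001 from 2.49% to 12.8% and 15.9%.

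**Figure D2:**
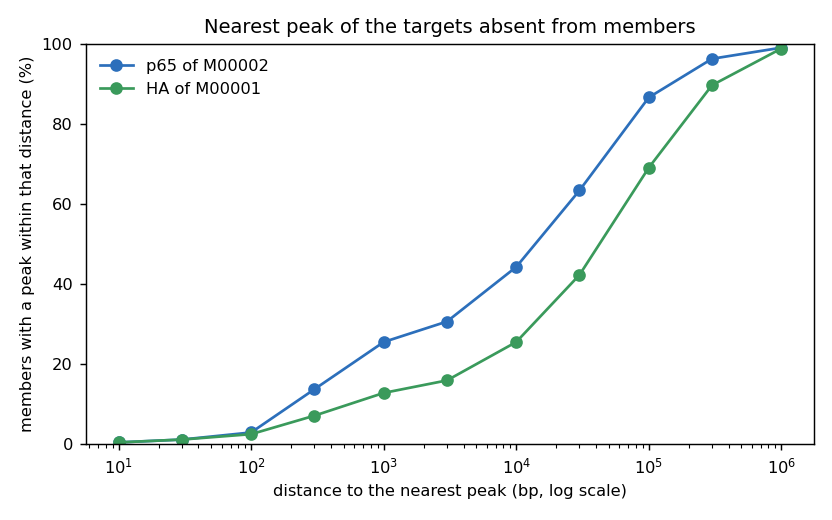
Distance to the nearest peak (x axis, bp, log scale) against the share of the 1407 members with a peak within it (y axis, percent), for p65 of M00002 and HA of M00001. Within 10000 bp, 44.3% of members have a p65 peak and 25.5% an HA peak of M00001.

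Members were spread over 1340 H3K27ac regions, made by merging the peaks of both antibodies. Of these, 1277 held 1 member and 63 held 2, and 4 members touched no merged region seen by both antibodies. Their median width was 957.5 bp. For the 6168 regions with any HA peak of M00002 it was 970.5 bp, and for those without HA 709 bp. Elsewhere in the same region p65 was present in 23.0% and HA of M00001 in 12.1%, and 1004 regions (74.9%) had neither. The HA summit lay in the middle 50% of the region for 917 of 1403 members (65.4%) and had a median distance of 165 bp from the ac4729 summit and 160 bp from that of ac647. Over all HA peaks that overlap such a peak these distances were 166 and 176 bp, so they are not particular to members. Overlap with both antibodies was part of the rule, and the middle share was not computed for other classes. In M00001, p300 was somewhere in 17.1% of the member regions and S2 in 43.3%, against 11.6% and 36.0% of the narrower regions without HA and 11.2% and 29.4% of regions with an M00002-only HA peak with p65. Over all 10741 regions of both antibodies the shares were 17.5% and 42.0%, and over those with any HA peak 21.9% and 46.4%, so member regions were near the former and below the latter.

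Coactivators and polymerase were measured in M00001, the line in which members have no HA peak. Members overlapped p300 there in 147 of 1407 cases (10.4%, interval 8.90 to 12.2), against 6.55% of all HA peaks of M00002 free of IgG. Cbp overlapped 47 members (3.34%, 2.46 to 4.42) against 2.81% of all, a difference within counting error. Rpb1 S5 overlapped 261 (18.6%, 16.6 to 20.7) against 12.2%, and Rpb1 S2 overlapped 471 (33.5%, 31.0 to 36.0) against 21.9%. At least 1 of the 4 was present at 554 members (39.4%), against 24.7% of all HA peaks, 27.1% of M00002-only peaks with p65 and 60.1% of the shared peaks. So p300 and both forms of Rpb1 in M00001 were at members more often than at HA peaks of M00002 at large, by more than counting error over peaks. Such intervals do not cover the spread between libraries, which 1 library per target cannot give. Wider peaks also meet more peaks of any kind.

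The peaks with neither H3K27ac nor p65 had p300 at 1.17%, S5 at 3.44% and S2 at 8.03%, below members in each case. The shared peaks with H3K27ac and no p65 had p300 at 20.9%, S5 at 33.3% and S2 at 51.2%, above members in each case. The M00002-only peaks with H3K27ac and p65 came closest, with p300 at 8.16% (6.92 to 9.53), S5 at 12.3% and S2 at 22.9% (21.0 to 24.9). For p300 their interval overlaps that of members, and for S2 it does not.

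**Figure D3:**
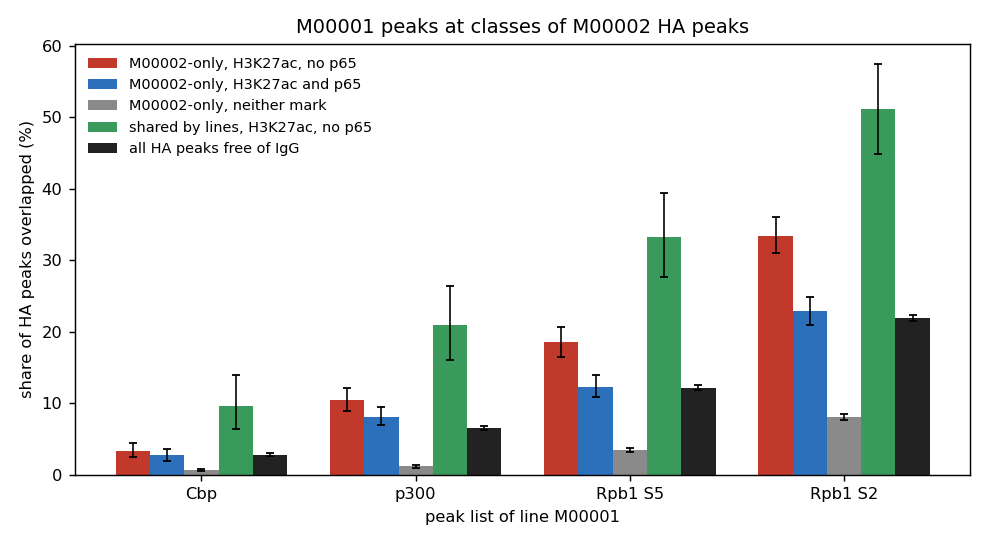
Share of HA peaks of M00002 (y axis, percent) that overlap a peak of Cbp, p300, Rpb1 S5 or Rpb1 S2 of M00001 (x axis), by class, with exact 95% intervals as error bars. Members lie above the peaks with neither mark for each target and below the shared peaks, with S2 at 33.5% against 8.03% and 51.2%.

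The order of these shares depended on HA fold. All HA peaks free of IgG were ranked by fold into 5 equal classes, from lowest to highest. Among members, S2 of M00001 was present at 36.5%, 36.8%, 34.5%, 32.8% and 21.6% of peaks in these classes, and p300 at 12.5%, 13.2%, 10.5%, 10.1% and 3.45%. Among all HA peaks the order was the opposite, with S2 at 4.84% in the lowest class and 37.0% in the highest, and p300 at 1.01% and 15.0%. In the lowest class members had S2 and p300 more often than all HA peaks, and in the highest class less often, by more than their intervals (14.5 to 30.1 for S2 and 0.947 to 8.59 for p300 at members). The same turn appeared with HA limited to −log10 q of at least 5. There 412 members had p300 at 8.01% (5.58 to 11.1) and S2 at 28.2% (23.9 to 32.8), against 12.1% and 34.3% of all HA peaks under that limit. The excess of p300 and S2 at members over all HA peaks thus appeared among weak HA peaks and not among strong ones. All HA peaks include those shared with M00001, which members exclude by choice.

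Within a class of fold, the intervals of members and of the M00002-only peaks with p65 overlapped for S2 and p300 in each of the 5 classes. S2 was at 34.5% of members (30.3 to 38.8) and 37.3% of peaks with p65 (30.0 to 45.0) in the middle class. In the highest class it was at 21.6% (14.5 to 30.1) and 15.5% (13.3 to 18.0). The peaks with neither mark had S2 at 2.38% in the lowest class and 15.1% in the middle class, both below the intervals of members, and at 17.2% (12.7 to 22.6) in the highest class, which overlaps that of members. The difference in S2 between members and peaks with p65 over all folds was thus not clear of counting error inside any class, by these intervals. The 2 lowest classes hold only 10 and 31 peaks with p65, with S2 intervals of 12.2 to 73.8 and 30.2 to 66.9, so overlap there says little. With HA limited to −log10 q of at least 5, S2 was at 28.2% of members and 19.1% of peaks with p65 (17.2 to 21.2), beyond counting error. The part of HA fold in the difference was not tested.

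**Figure D4:**
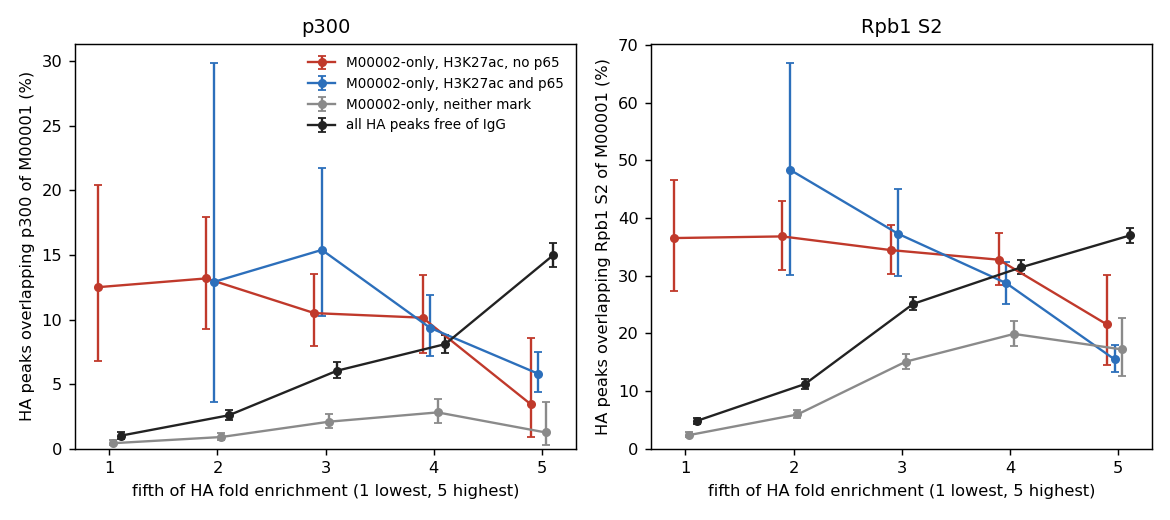
Share of HA peaks (y axis, percent, exact 95% intervals) that overlap p300 (left) or Rpb1 S2 (right) of M00001, over 5 equal classes of HA fold (x axis, lowest to highest), for classes with at least 20 peaks. The line of members goes from 36.5% to 21.6% for S2 while that of all HA peaks goes from 4.84% to 37.0%.

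Of the members, 277 (19.7%, interval 17.6 to 21.9) lay within 1 kb of either end of a protein-coding gene, near the 19.1% of all HA peaks free of IgG. A further 13.1% lay between 1 and 5 kb, 27.3% between 5 and 25 kb, and 562 (39.9%) farther than 25 kb, 304 of these inside a gene and 258 outside. In all, 59.2% of members lay inside a gene, against 50.9% of all HA peaks, 60.6% of those with p65 and 46.8% of those with neither mark. Near a gene end members had S2 of M00001 at 57.8% and p300 at 12.3%, while all HA peaks had 63.4% and 14.7%. Farther than 1 kb from an end, 1130 members had S2 at 27.5% (24.9 to 30.2), S5 at 13.7% and p300 at 10.0% (8.31 to 11.9), while all HA peaks had 12.2%, 5.76% and 4.61%. The share of marks thus exceeded that of all HA peaks among distal members and not among those near gene ends. The other classes with H3K27ac also exceeded all HA peaks at distal sites, with S2 at 18.1% and p300 at 7.27% for M00002-only peaks with p65 and 36.5% and 18.8% for shared peaks. By RefSeq start sites, 295 of 1362 members (21.7%, 19.5 to 23.9) lay within 1 kb of a start, against 18.9% of all HA peaks. The share was 16.9% for M00002-only peaks with p65 and 32.0% for shared peaks. Of the 295 members, 164 had the summit upstream (55.6%, 49.7 to 61.4), against 62.7% of all HA peaks near a start. By start sites members thus differed a little from all HA peaks, beyond counting error over peaks. Members made up between 3.97% of the IgG-free HA peaks on chromosome 5 and 6.33% on chromosome 16.

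At gene level, 574 of 21627 protein-coding genes (2.65%) had a member within 5 kb of an end, against 39.6% with any HA peak of M00002 free of IgG, and 3.34% had a member inside. For 250 of the 574 genes (43.6%) every such HA peak nearby was a member. HA of M00001 lay near 184 of them (32.1%) and p65 near 276 (48.1%), while 270 (47.0%) had neither. Of genes with any HA peak of M00002, 35.4% had HA of M00001, and 4714 of 8571 had p65, so both were a little less frequent at genes with a member. The rule favours this difference, because members were chosen to overlap neither, so it is no finding. The remaining genes had p65 or HA of M00001 at another place near the same gene. S2 of M00001 lay near 495 of the genes (86.2%) and p300 near 158 (27.5%), against 76.9% and 20.0% of genes with any HA.

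The members of highest fold near genes stood at genes of varied function. Of the 20 highest, 10 overlapped S2 of M00001, 4 S5, 2 p300 and 0 Cbp. Within 1 kb of a gene end, all HA peaks overlapped these at 63.4%, 39.5%, 14.7% and 5.48%. Members there did so at 57.8%, 38.3%, 12.3% and 3.97%. Some of the 20 lie farther than 1 kb from an end, and no interval was computed for so few sites. The member near Hfe, an iron-regulating MHC-like protein, and the histone genes H1f6 and H4c3 had an HA fold of 14.7, with H3K27ac folds of 3.56 for ac4729 and 4.66 for ac647. The member inside Ghr, the growth hormone receptor, had an HA fold of 14.5 and H3K27ac folds of 4.73 and 6.16, and its nearest p65 peak was 128069 bp away. Samhd1, a hydrolase of deoxynucleotides, had a member with an HA fold of 14.4, and Ncoa6, a coactivator of nuclear receptors, one with 14.0. None of these 4 overlapped Cbp, p300, S5 or S2 of M00001. Nedd1, which brings gamma-tubulin to the centrosome, followed with 11.4 and an S2 peak of M00001. The calcium channel genes Orai1 and Orai2 had members with HA folds of 11.4 and 9.75, and the one at Orai2 had S2 of M00001 at 2.58. The zinc finger gene Zfp637 had a member with 11.2 that overlapped S5 (4.11) and S2 (4.74) of M00001. Grk2, which encodes a G protein-coupled receptor kinase, had one with 10.6. The p65 peaks nearest to these 2 members lay 195 bp and 485 bp away. Rapgef2 had a member with 10.1, which overlapped p300, S5 and S2 of M00001. Il34, a ligand of the CSF1 receptor, and the group Chmp2a, Trim28 and Ube2m had members with 9.86 and 9.81, the latter with S5 at 2.61 and S2 at 3.45. Among members farther than 25 kb from a gene end, those inside Hdac8, a histone deacetylase gene, Frmpd4 and Zfp423 were highest, with HA folds of 14.8, 14.1 and 13.2.

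Both coactivators of M00001 overlapped 29 members (2.06%, interval 1.38 to 2.95), near the 1.58% of all HA peaks free of IgG, and 7 of the 29 lay within 5 kb of a gene end. At the one in Ptp4a1, a phosphatase gene, HA fold was 7.72, with Cbp at 6.85, p300 at 6.49, S5 at 6.82 and S2 at 5.78, and an HA peak of M00001 lay 24 bp away. The one at Higd1a, a mitochondrial protein induced by hypoxia, had an HA fold of 7.69 with Cbp at 3.09 and p300 at 5.47, and a p65 peak 127 bp away. The others lay at Fbrs, Usp28, Spsb2 and Tpi1, Ttc14 and Vmp1. Those at Usp28 and Ttc14 had their nearest p65 peak 209587 bp and 170348 bp away.

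Some genes held several members. Ghr had 4 members among its 5 HA peaks free of IgG, with HA folds of 2.99 to 14.5, and none of these 5 HA peaks overlapped p65. Vmp1, an autophagy gene, had 4 members, its only 4 such HA peaks, with folds of 2.99 to 4.49, and 3 of them overlapped p300 of M00001. Tenm3, an adhesion gene of the nervous system, had 3 members among 8 HA peaks and none of those 8 had p65. Osbpl3, Igf1r, Syn3 and Ctif each had 4 members but also 5 to 13 HA peaks with p65. Igf1r, the receptor of insulin-like growth factors, had 4 members of 13 HA peaks with folds of 4.49 to 6.58, 3 of them with S2 of M00001. Most of these genes are long, with 266 kb for Ghr and 1297 kb for Tenm3, which gives room for several peaks.

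Across 23 gene lists for this tumour type, its lineage, other cell types and signalling pathways, members lay near listed genes about as often as near all genes. Of the 400 listed genes, 13 (3.25%) had a member within 5 kb of an end, against 2.65% of all genes, and 14 lists had none. The ependymoma list had 0 of 17, a count too small to differ from that background, and 14 of the 17 had some HA peak within 5 kb. The lists of ependymal, neuron, oligodendrocyte, astrocyte, microglia and endothelium markers had none within 5 kb either. With members inside genes counted too, a count added after the data were seen, 6 lists had none. Ephb2 and Fgfr1 of the ependymoma list (11.8% of it, against 4.68% of all genes), the neuron gene Syt1 and the endothelium gene Kdr then had one. NF-kappaB targets had 1 of 28, the adhesion gene Vcam1. Its member was a weak call, with an HA fold of 2.99 and a −log10 q of 0.483, and the nearest p65 peak was 66331 bp away. Members of the same fold and q lie in Vmp1, Ghr and Tenm3. Inside Bcl2l1, a survival gene of the same list, a member had 3.88 and a p65 peak 2 bp away. Radial glia genes had 2 of 22. At Sox9, a transcription factor of neural stem cells, 2 members had HA folds of 4.90 and 4.79, with p65 peaks 488 bp and 818 bp away. At Vim, an intermediate filament gene, 1 member had 5.74 with Cbp of M00001 at 5.21, a p65 peak 387 bp away and an HA peak of M00001 212 bp away.

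Wnt pathway genes had 2 of 24. The member in Axin2, a feedback inhibitor of beta-catenin, had an HA fold of 6.99 with S5 and S2 of M00001, and that in Gsk3b, a kinase of the same complex, 4.76. The TGF-beta and BMP list had 2 of 28, with 2 members at the ligand gene Tgfb3 (3.54 and 3.51) and 1 in the receptor gene Bmpr1a (5.51). Etv5, an Ets factor, had a member with an HA fold of 5.25, and E2f3, a factor of the G1 cell cycle list, one with 4.58.

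Of all lists compared, the Hedgehog pathway held the highest share, and no correction was made for picking the highest. Within 5 kb of an end, 2 of its 14 genes (14.3%) had a member, against 2.65% of all genes. By the count added after the data were seen, with members inside genes, 6 of the 14 (42.9%) had one. That share was 4.68% for all genes and 10.3% for listed genes. An HA peak of any kind lay within 5 kb or inside for 71.4% of the Hedgehog list. For all genes this was 49.7% and for listed genes 77.25%. The list has a median gene length of 45.5 kb, against 17.3 kb for all genes, and longer genes have more room. The axon guidance list, with a median of 148 kb, had 5 of 26. The receptor gene Ptch1 had a member with an HA fold of 6.72 and H3K27ac folds of 4.13 and 4.04, with the nearest p65 peak 58690 bp away. Gli3, a zinc finger factor of the pathway that acts mainly as a repressor, had 3 members with 6.41, 5.70 and 5.61. Gli2, mainly an activator, had 2 with 5.07 and 4.11. The coreceptor genes Boc and Gas1 had 1 each, with 3.58 and 4.02, and the p65 peaks nearest to these lay 181 bp and 80 bp away. Thus the members at Ptch1, Gli2 and Gli3 had no p65 peak within 5 kb, while those at Boc and Gas1 had one close by.

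Promoter sequence was compared for the 133 RefSeq promoter windows, 250 bases before to 50 after a start, that members overlap. Motifs were searched on both strands as exact letters. The PLAG core GGGGCC was in 47 of them (35.3%, interval 27.3 to 44.1), against 74 of 132 windows (56.1%, 47.2 to 64.7) under M00002-only peaks with p65, 53.1% under all HA peaks, 44.9% under peaks with neither mark and 25.1% of all 32583 windows. The shared peaks, also with H3K27ac and without p65, had it in 26 of 42 windows (61.9%, 45.6 to 76.4). Their interval lies above that of members. G+C content did not differ in this way between members and peaks with p65, with medians of 61.3% and 61.0%. Under shared peaks the median was higher, at 66.7%. Within windows of 55 to 65% G+C, a limit set after the data were seen, the core was in 23 of 60 windows at members (38.3%, 26.1 to 51.8) and 35 of 57 with p65 (61.4%, 47.6 to 74.0). The intervals overlap, which alone does not place the difference within counting error. All windows of that G+C held it in 33.2%, all HA peaks in 46.6% and peaks with neither mark in 39.7%. Each of these lies inside the interval of members. The shared peaks had it in 5 of 13 such windows.

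The kappaB match was in 12.0% of windows at members and 12.1% at peaks with p65, against 13.6% under all HA peaks and 8.51% of all windows. Within 55 to 65% G+C it was in 13.3% at members (5.94 to 24.6) and 11.5% of all windows, a difference within counting error. The windows were sorted by the HA peak they overlap, and a member window can still hold a p65 peak beside it. The GC box GGGCGG was in 61.7% and 64.4%, the AP-1 site TGANTCA in 9.02% and 7.58%, while the SOX letters ACAAAG or ACAATG were in 24.8% at members, near the 28.3% of all windows. Of 8 motifs compared, the PLAG core was the one whose intervals at members and at peaks with p65 did not overlap. Neighbouring windows can share a peak, and a GC box can overlap other GC-rich matches. Sequence under members away from promoters was not analysed here.

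**Figure D5:**
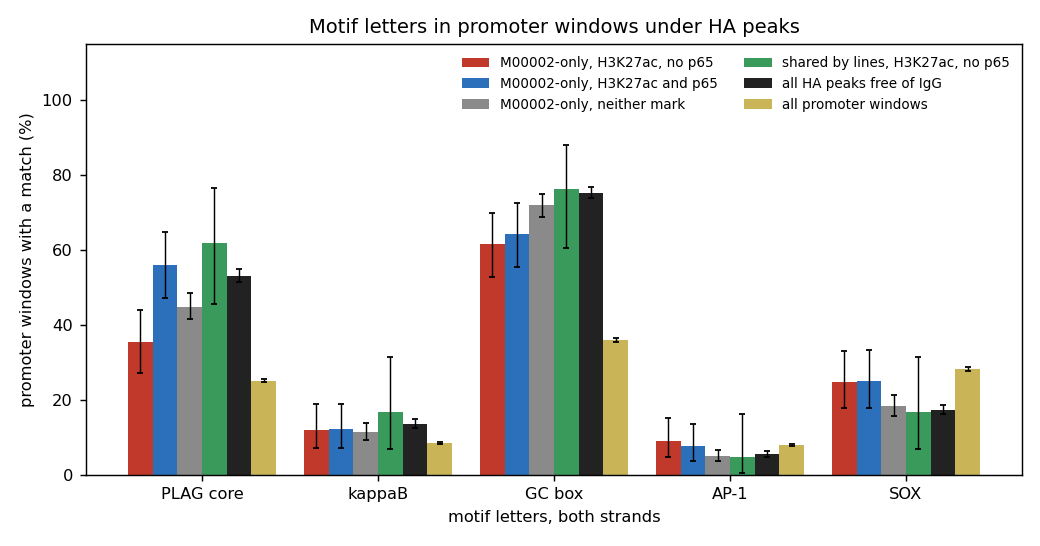
Share of promoter windows with a motif match (y axis, percent, exact 95% intervals) for 5 motifs (x axis), by class of the HA peak they overlap and for all promoter windows. The PLAG core is at 35.3% for members and 56.1% for M00002-only peaks with p65, while kappaB is at 12.0% and 12.1%.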

How the data were processed

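Peak lists of 11 CUT&RUN libraries were deposited, 1 per sample and not pooled. The tools MACS2, Bowtie2 2.3.5.1, deepTools, FastQC and Trim Galore and the build mm10 are named per the submitters' processing notes. Each list deposited by the authors gives per peak a score, the q-value and p-value as −log10, a fold enrichment (a ratio over background) and a summit offset. The smallest −log10 p was 3. Sources used here do not give the control in peak calling or what the 120 bp label means. The lists hold no read counts, so depth is unknown.

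Overlap meant at least 1 bp. Intervals of shares are exact Clopper-Pearson at 95% and span counting error alone; no p-value was computed. Genes were 21627 protein-coding genes of GRCm38.p6, by both ends, without strand. RefSeq promoter windows covered 19 of 20 chromosomes. Named genes come from 6 rankings: the 20 near members of highest HA fold, 10 with Cbp and p300, 10 with most members, up to 4 per list, 5 distal members and 10 members of highest H3K27ac. The text gives the leading ones of each. Some genes the rankings give are not reported here. Members and lists were chosen with earlier results of these data known. Overlap code was tested on simulated data. Analyses used Python 3.11.15, pandas 2.3.3 and scipy 1.17.1.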

Additional observations from a re-analysis of the deposited data

How the results depend on the processing

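Alternatives changed 1 choice at a time. With −log10 q of at least 5 in every list there were 544 members near 219 genes, with Cbp at 0.919%, p300 at 2.21%, S5 at 10.5% and S2 at 22.6%. With that limit for HA alone there were 412 members near 183 genes, with 1.94%, 8.01%, 14.8% and 28.2%. With the HA list of M00002 as long as that of M00001, 253 members near 99 genes remained to be counted. They had p300 at 8.70% (5.53 to 12.9), S5 at 14.6% (10.5 to 19.6) and S2 at 26.5% (21.2 to 32.4). All HA peaks under that setting had 13.2%, 20.9% and 35.1%, so members there were below all HA peaks and the excess was reversed. Either H3K27ac antibody gave 4054 members near 1873 genes, with p300 at 7.55% and 25.3% within 1 kb of a gene end. With 50% of the HA peak covered, S5 was at 14.6% and S2 at 29.0%. Summits extended by 250 bp to each side gave S5 at 23.1%, S2 at 37.7% and 22.7% near an end. Absence within 1 kb gave 364 genes and 16.8% near an end. Gene windows of 1 and 25 kb gave 311 and 1494 genes, and limits of 500 and 2500 bp from an end gave 14.9% and 26.9%. Keeping peaks that overlap IgG moved no share beyond its interval and no count by over 1.5 times. Absence over the whole H3K27ac region, added after the data were seen, left 1055 members near 403 genes with shares inside their intervals. With q limited in every list, all HA peaks had p300 at 2.45% and S2 at 25.3%, so the excess at members was lost there too. The cause was not tested. No paired analysis was possible because each target had 1 library per line. Read depth is unknown, so a missing peak cannot be told apart from one too weak to be called.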

Other observations

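Members were ranked by the mean of their within-list ranks of H3K27ac fold in both antibodies, so the highest member of a single antibody need not lead. Several of the 10 leading members are described. At 0610009B22Rik and Sec24a, H3K27ac folds were 10.3 for ac4729 and 9.37 for ac647, with an HA fold of 3.35. At Mastl and Yme1l1 they were 6.90 and 9.89, with an HA fold of 3.74, and S5 and S2 of M00001 were present at 7.16 and 9.27. Inside Ccdc77, beside Kdm5a, a histone demethylase gene, 2 members shared H3K27ac peaks of 7.50 and 9.24 and had HA folds of 7.54 and 6.20. The member near Gm20878 had H3K27ac folds of 11.4 and 15.7, and members near Gm21953 and Vmn2r121 were also among the highest. These 3 lie by predicted genes or a receptor gene family, where near-identical copies can share reads, so their values are uncertain.

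Outside chromosomes 1 to 19 and X, M00002 had 743 HA peaks, 538 of them on Y. Of these 743, 5 met the overlap rule, 2 of them on Y, and they are in no count above.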
